A study of Mus musculus with 6 samples.

Results

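The sirtuins are the 7 mammalian deacylases that remove acyl groups from lysine and consume NAD in each reaction, and all 7 genes, Sirt1 to Sirt7, were measured. Members were chosen as the probe sets whose platform annotation gives exactly 1 gene symbol from Sirt1 to Sirt7. This gave 9 probe sets of 45037, with 3 for Sirt5 and 1 for each other gene. Primary MEFs, fibroblasts from mouse embryos, carried floxed CNOT3 alleles in both cultures. CNOT3-depleted (CNOT3KD) MEFs received a Cre retrovirus and control MEFs a mock retrovirus, and both were kept in puromycin for 2 days. Each culture was left untreated (0 h) or exposed to actinomycin D (Act. D), which blocks transcription, for 6 or 12 h, and each of the 6 conditions was read on 1 array. Control MEFs are given as wild type in the labels, whereas the study describes floxed MEFs with mock virus. Control MEFs did not receive Cre, so the effects of Cre itself and of CNOT3 loss cannot be told apart. The number of embryos behind each culture is not stated.

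CNOT3 is a subunit of CCR4-NOT, the complex that shortens poly(A) tails and so starts the decay of most mRNAs. The arrays ask whether an mRNA that disappears after Act. D in control MEFs persists without CNOT3. Because sirtuins need NAD, their activity follows NAD supply as well as protein level, and they sit in different compartments. Sirt1, Sirt6 and Sirt7 act in the nucleus, Sirt2 mainly in the cytoplasm, and Sirt3, Sirt4 and Sirt5 in mitochondria. Protein and enzyme activity were not measured on these arrays.

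Values are MAS5 signals, the authors' summary of each probe set on a linear scale. All arrays had nearly the same trimmed mean (494 to 497), so signals after Act. D are shares of the surviving mRNA pool and may pass 100% of 0 h. With 1 array per condition no difference has a replicate check, and no p-value is given. Near background here means below the 25th percentile of the array concerned, which lay at 13.6 to 19.8. Cnot3 itself had 239.6 in CNOT3KD and 436 in control MEFs at 0 h at one probe set, and 227 and 204 at the other. Whether either probe set lies within the floxed exons is not stated, so they check the depletion only in part. Apart from the arrays, the study reported depletion of CNOT3 protein on immunoblots and lower Cnot3 mRNA by quantitative PCR. All 11 measured fibroblast markers were above background in every array. Epithelial markers summed to 2880 to 3421 in CNOT3KD and 1240 to 1403 in control arrays, with 6 of 9 more than 1.5-fold higher and 1 lower at 0 h (19.5% and 15.7% of all genes). Leukocyte markers summed to 3682 to 5045 in CNOT3KD and 2496 to 5125 in control arrays. At 0 h the leukocyte sums were 3682 and 2496, with 3 of 10 more than 1.5-fold higher and 1 lower (19.5% and 15.7% of all genes). Cdh1 and Krt14, both counted as higher, were near background in control MEFs at 0 h, and Cldn4, the lower epithelial marker, in CNOT3KD MEFs. Itgam, the lower leukocyte marker, and Cd3e were near background in both cultures at 0 h. The part of these markers in the sirtuin values was not tested.

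Of the nuclear sirtuins, Sirt1, the deacetylase of p53 and FOXO factors, kept a larger fraction of its mRNA in CNOT3KD than in control MEFs after Act. D. Its signal was 716, 350 and 264 at 0, 6 and 12 h in CNOT3KD MEFs, against 723, 39.5 and 71.0 in control MEFs (probe set 1418640_at, Entrez 93759). The cultures differed by 1.01-fold at 0 h, whereas both Act. D arrays of control MEFs lay below both of CNOT3KD MEFs. The signal left was 49.0% and 36.9% in CNOT3KD MEFs at 6 and 12 h, against 5.46% and 9.81% in control MEFs. The fraction left was therefore 8.96 times and 3.76 times that of control MEFs. No Sirt1 signal was near background. Its lowest value, in control MEFs at 6 h, stood at the 42.3rd percentile of that array, and its 0 h values at the 80.6th percentile in CNOT3KD and the 81.1st in control MEFs. Stabilization, the log2 ratio of the 2 fractions left averaged over 6 and 12 h, was 2.54 for Sirt1. This was higher than 97.8% of the 22519 probe sets in the upper part of the signal range, those with a mean log2 signal at 0 h no lower than the median.

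Sirt7, the nucleolar sirtuin linked to ribosomal RNA transcription, fell in both cultures after Act. D. It had 938, 433 and 491 at 0, 6 and 12 h in CNOT3KD MEFs and 655, 248 and 398 in control MEFs (1424238_at, Entrez 209011). At each time the CNOT3KD array was the higher, by 1.43-fold, 1.75-fold and 1.23-fold. The fractions left were close, with 46.1% and 52.3% in CNOT3KD MEFs and 37.9% and 60.8% in control MEFs, and the sign of the difference turned between 6 and 12 h. That turn depends on the scaling. With each array divided by the median of its ribosomal protein signals, Sirt7 kept 42.0% and 44.3% in CNOT3KD MEFs, against 24.9% and 32.4% in control MEFs, and with quantile normalization 51.2% and 61.2% in CNOT3KD MEFs, against 58.2% and 105% in control MEFs. In both cultures the 12 h signal lay above the 6 h signal.

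Sirt6, a chromatin deacetylase that acts in DNA repair and restrains glycolytic genes, had 126, 119 and 81.9 in CNOT3KD MEFs and 148, 113 and 106 in control MEFs (1429631_at, Entrez 50721). Its 6 signals spanned 1.81-fold in all. It kept 94.5% and 64.9% in CNOT3KD MEFs and 76.1% and 71.6% in control MEFs, so the order of the cultures turned between the 2 times. With ribosomal protein scaling it did not turn, since Sirt6 then kept 86.1% and 55.0% in CNOT3KD MEFs and 50.1% and 38.1% in control MEFs.

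Sirt2, the cytoplasmic sirtuin that deacetylates tubulin, had 800, 1213 and 1352 in CNOT3KD MEFs and 892, 1254 and 1452 in control MEFs (1423507_a_at, Entrez 64383). It was slightly lower in CNOT3KD MEFs at each time, by 1.12-fold at 0 h, 1.03-fold at 6 h and 1.07-fold at 12 h. Relative to the mRNA that remained it gained signal in both cultures, with 152% and 169% in CNOT3KD MEFs and 141% and 163% in control MEFs. With ribosomal protein scaling, Sirt2 kept 138% and 143% in CNOT3KD MEFs and 92.6% and 86.8% in control MEFs. The rise in control MEFs thus turns to a fall with that scaling, which moves the median stabilization of all probe sets by 0.57.

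**Figure D1:**
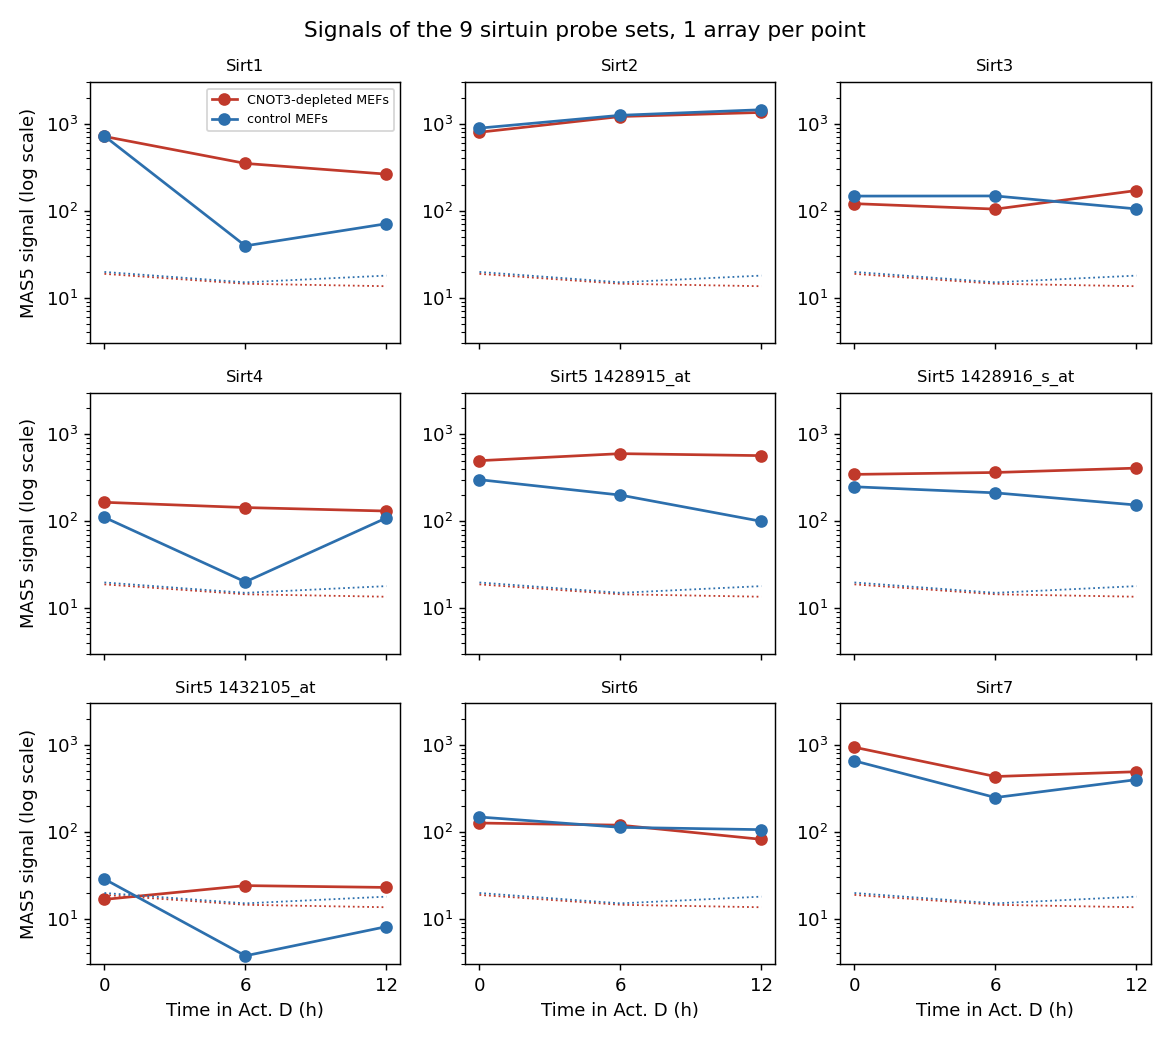
MAS5 signals (log scale) of the 9 sirtuin probe sets before and during Act. D (0, 6 and 12 h) in CNOT3KD MEFs (red) and control MEFs (blue), 1 array per point, with the 25th percentile of each array dotted. Sirt1 starts at 716 (CNOT3KD) and 723 (control) and separates after Act. D, Sirt5 separates at both brighter probe sets, and Sirt2 runs nearly together.

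Among the mitochondrial sirtuins, Sirt5, which removes succinyl and malonyl groups from metabolic enzymes, was higher in CNOT3KD MEFs at every time at its brightest probe set. It read 498, 599.8 and 569 at 0, 6 and 12 h in CNOT3KD MEFs and 301, 200.2 and 99.9 in control MEFs (1428915_at, Entrez 68346). All 3 CNOT3KD arrays lay above all 3 control arrays. The ratio of CNOT3KD to control MEFs was 1.65 at 0 h, 3.0 at 6 h and 5.70 at 12 h. Sirt5 kept 120% and 114% in CNOT3KD MEFs and 66.5% and 33.2% in control MEFs, a stabilization of 1.32. The study followed Sirt5 because of these arrays, so its direction here is a description and not independent evidence. Apart from the arrays, the study reported higher Sirt5 mRNA and a longer half-life in CNOT3-depleted MEFs by quantitative PCR. It also reported that Sirt5 mRNA was recovered with CNOT3 by immunoprecipitation.

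The other probe sets of Sirt5 carry the same gene symbol and are not replicates. Whether they read the same transcripts was not tested. A dimmer one had 346, 364 and 409 in CNOT3KD MEFs and 249, 212 and 154 in control MEFs (1428916_s_at). The suffix of this probe set marks probes that can match more than 1 transcript. Here too the CNOT3KD arrays all lay above the control arrays, by 1.39-fold, 1.72-fold and 2.66-fold at 0, 6 and 12 h, and 105% and 118% were left in CNOT3KD MEFs, against 85.1% and 61.7% in control MEFs. The dimmest Sirt5 probe set had 16.7, 24.1 and 22.9 in CNOT3KD MEFs and 28.6, 3.75 and 8.12 in control MEFs (1432105_at). It was near background in 3 arrays, CNOT3KD MEFs at 0 h and control MEFs at 6 and 12 h. With the 25th percentile in place of near-background signals, its ratio of CNOT3KD to control MEFs was at least 1.60 at 6 h and at least 1.28 at 12 h.

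Sirt3, the main deacetylase of the mitochondrial matrix, changed order from time to time. It had 121, 105 and 171 in CNOT3KD MEFs and 148, 148 and 105 in control MEFs (1417892_a_at, Entrez 64384). It was 1.22-fold and 1.42-fold lower in CNOT3KD MEFs at 0 and 6 h and 1.63-fold higher at 12 h. The signal left was 86.6% and 142% in CNOT3KD MEFs and 100.3% and 71.2% in control MEFs. With ribosomal protein scaling Sirt3 kept more in CNOT3KD MEFs at both times, 78.8% and 120%, against 66.1% and 38.0% in control MEFs.

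Sirt4, a mitochondrial sirtuin known to restrain glutamate dehydrogenase, had 165, 144 and 131 in CNOT3KD MEFs and 111, 20.1 and 109 in control MEFs (1426847_at, Entrez 75387). The control array at 6 h stood apart from the other 5, and at 12 h the cultures differed by 1.20-fold. That 6 h signal was low, at the 29.1st percentile of its array, where the near-background limit was 15.0. Sirt4 kept 87.0% and 79.3% in CNOT3KD MEFs and 18.1% and 98.5% in control MEFs. Its stabilization was 2.26 at 6 h and −0.31 at 12 h, so the mean of 0.98 rests on the control array at 6 h. With ribosomal protein scaling the 12 h sign turned, with 67.2% left in CNOT3KD MEFs and 52.5% in control MEFs.

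**Figure D2:**
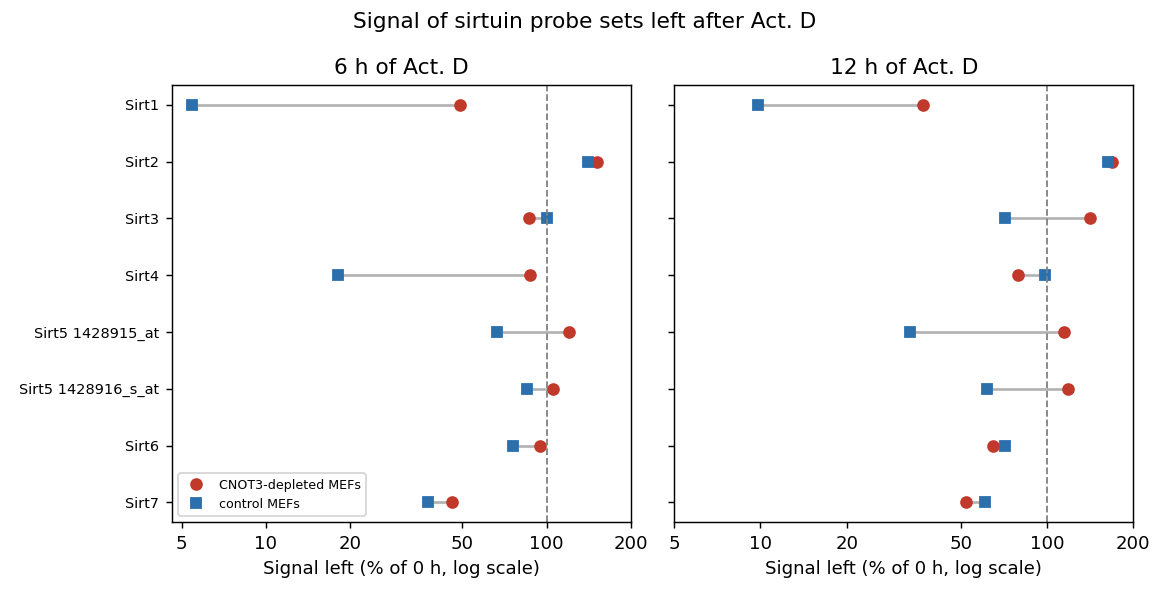
Percentage of the 0 h signal (log scale) that remained at 6 h (left panel) and 12 h (right panel) of Act. D for the 8 sirtuin probe sets no dimmer than the median, with CNOT3KD MEFs as red circles and control MEFs as blue squares. The gap is widest for Sirt1 at 6 h (49.0% in CNOT3KD MEFs and 5.46% in control MEFs), and at 12 h Sirt4 has 79.3% in CNOT3KD MEFs and 98.5% in control MEFs.

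At 0 h the 7 genes went both ways, with Sirt5, Sirt4 and Sirt7 from 1.43-fold to 1.65-fold higher in CNOT3KD MEFs, Sirt1 within 1.01-fold, and Sirt2, Sirt6 and Sirt3 from 1.12-fold to 1.22-fold lower. Of the 9 probe sets, 1 was more than 1.5-fold higher in CNOT3KD MEFs at 0 h, the brightest of Sirt5, against 18.6% of all 45037 probe sets. Another was more than 1.5-fold lower, the near-background probe set of Sirt5, against 22.1%. Of the 8 no dimmer than the median, 1 was higher, against 9.46% of 22519 probe sets, and 0 lower, against 11.7%. Sirt4 at 1.49-fold and Sirt7 at 1.43-fold were just under that limit. With each gene at its brightest probe set, the median log2 ratio at 0 h was −0.01 for the 7 sirtuins, 0.06 for all 18193 genes and 0.08 for the 11062 genes no dimmer than the median.

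After Act. D the ratios spread. At 6 h, 4 of 7 genes were more than 1.5-fold higher in CNOT3KD MEFs, Sirt1 at 8.87-fold, Sirt4 at 7.16-fold, Sirt5 at 3.0-fold and Sirt7 at 1.75-fold, against 32.3% of all genes and 33.9% of those 11062. At 12 h these were 3 of 7, Sirt5 at 5.70-fold, Sirt1 at 3.72-fold and Sirt3 at 1.63-fold, against 33.4% and 40.2%. The 7.16-fold of Sirt4 at 6 h rests on a control signal of 20.1, at the 29.1st percentile of its array. No sirtuin gene was more than 1.5-fold lower at 6 h, where 19.7% of all genes and 11.9% of the 11062 were, or at 12 h, where these shares were 29.7% and 20.2%. The median log2 ratio was 0.80 at 6 h and 0.30 at 12 h for the sirtuins, and 0.21 and 0.26 for the 11062 genes, so at 12 h the medians were close.

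Decay in the 2 cultures was compared on the 7 genes, all of which were no dimmer than the median at 0 h. At 6 h, 2 genes had 50% or less left in CNOT3KD MEFs, Sirt1 and Sirt7, against 12.8% of the 11062 genes at that level. In control MEFs these were 3, Sirt1, Sirt4 and Sirt7, against 28.2%. Sirt4 entered by its low control signal at 6 h. At 12 h Sirt1 alone was at or under 50% in CNOT3KD MEFs, against 16.8%, and Sirt1 and Sirt5 in control MEFs, against 38.0%. The median stabilization was 0.39 for the 7 sirtuins, 0.13 for the genes at or above the median signal and 0.02 for all genes.

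To be called stabilized, a probe set needed a median or higher signal at 0 h, a 6 h signal in CNOT3KD MEFs of 0.5 to 2.0 times the 0 h signal (the CNOT3KD ratio), and, at 6 h and again at 12 h, a fraction left in CNOT3KD MEFs 2.0 times or more that in control MEFs. By this rule 0 of 8 sirtuin probe sets at that level were stabilized, against 8.89% of 22519, and 0 of 8 with the cultures exchanged, against 0.857%. The study did not use this rule but took stabilized transcripts from a hierarchical clustering. The count therefore does not test its choice of Sirt5. Both Sirt1 and Sirt5 were close to the limits. Sirt1 exceeded 2.0 times at both times, but its CNOT3KD ratio was 49.0% where the rule asks for at least 50%. The brightest Sirt5 probe set was 3.44 times at 12 h and 1.81 times at 6 h. Sirt3 was 1.99 times at 12 h and 0.86 times at 6 h. Signal above 0 h at both times in CNOT3KD MEFs and below it at both times in control MEFs was seen at 2 of 8 sirtuin probe sets, against 7.17% of 22519. Both were of Sirt5 and are not replicates. With each gene at its brightest probe set this was 1 of 7 genes, against 7.62% of 11062. Without the limit on the CNOT3KD ratio, an alternative chosen after the values were seen, Sirt1 met the rule, or 1 of 8, against 11.1%.

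**Figure D3:**
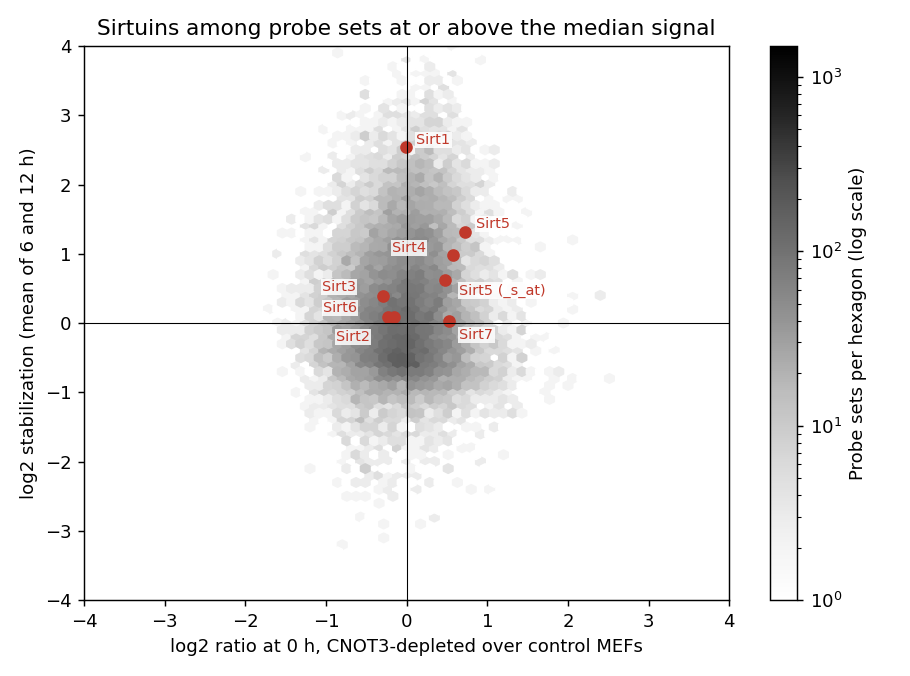
Log2 ratio of CNOT3KD to control MEFs at 0 h (horizontal) and log2 stabilization (vertical) for the 8 sirtuin probe sets no dimmer than the median (red), over all 22519 probe sets at that level (grey hexagons, 35 outside the axes). Sirt1 lies at −0.01 and 2.54, the brightest Sirt5 probe set at 0.73 and 1.32, and Sirt2, Sirt6 and Sirt7 lie between 0.03 and 0.09 on the vertical axis.

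The sirtuins had different time courses. Likeness was measured as the Euclidean distance between log2 signals over the 6 arrays, after subtracting the mean of each gene. The closest pair was Sirt2 and Sirt3 at 1.03, and the farthest was Sirt1 and Sirt2 at 4.50. Each gene had closer neighbours among the 11061 other genes at or above the median signal. For Sirt1 the nearest were Uhrf1bp1 at 0.36, Bag5, a co-chaperone gene, at 0.46, and Cstf2t, a gene of mRNA 3′ end cleavage, at 0.47. Uhrf1bp1 kept 39.1% and 39.2% in CNOT3KD MEFs and 6.22% and 11.7% in control MEFs. For Sirt5 they were Dock9, an activator of the GTPase CDC42, at 0.22, Rab32, a small GTPase gene, at 0.23, and Elp4, an Elongator subunit gene, at 0.26. Dock9 kept 108% and 102% in CNOT3KD MEFs and 59.8% and 28.8% in control MEFs.

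The nearest genes to Sirt2 were Gabbr1 at 0.12, C1galt1c1 at 0.13 and Ptprz1 at 0.16. Those of Sirt7 were the integrin gene Itga5 at 0.22, Synj2 at 0.28 and the transcription factor gene Irf5 at 0.32, and those of Sirt6 were Psd3 at 0.21, Hip1r at 0.22 and Aen at 0.23. Sirt3 was nearest to Mm2pr at 0.18, the calcineurin subunit gene Ppp3cc at 0.27 and D130020L05Rik at 0.34. Sirt4 had the most distant nearest genes, Fam131a at 0.57, Ankrd37 at 0.68 and Batf at 0.75. Like Sirt4 these fell at 6 h in control MEFs, to 19.4%, 21.0% and 16.2%, and stood at 76.7%, 73.6% and 54.4% at 12 h. Their signals in the control array at 6 h were as low as that of Sirt4 or nearly so, at 23.4, 28.0 and 19.9.

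The genes that supply NAD, the cosubstrate of sirtuins, were read in the same way. The list of NAD synthesis genes held 11 measured genes, of which 3 were more than 1.5-fold higher in CNOT3KD MEFs at 0 h and 0 lower, against 19.5% and 15.7% of all genes. Of the 9 at or above the median signal, 3 were stabilized, against 10.6% of 11062 genes, with a median stabilization of 0.84, whereas over all 11 it was 0.07. Nampt, the rate-limiting enzyme of NAD salvage, had 972, 1124 and 1083 at 0, 6 and 12 h in CNOT3KD MEFs and 802, 370 and 209.8 in control MEFs. It kept 116% and 111% in CNOT3KD MEFs and 46.2% and 26.2% in control MEFs. Another Nampt probe set at or above the median signal was not stabilized by the rule. It kept 137% and 147% in CNOT3KD MEFs, against 130% and 84.1% in control MEFs. A dimmer one, with 56.8 in CNOT3KD MEFs and 23.4 in control MEFs at 0 h, gained more in control MEFs.

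Nmnat1 makes NAD in the nucleus and Nmnat3 is the mitochondrial form. Nmnat1 kept 59.5% and 39.6% in CNOT3KD MEFs, against at most 12.2% and 14.6% in control MEFs, whose Act. D signals were near background. Its other probe set kept 42.7% and 23.3% in CNOT3KD MEFs, against at most 13.0% and 15.6% in control MEFs. The count took each gene at its brightest probe set, so this dimmer one did not enter it. Nmnat3 kept 81.6% and 83.2% in CNOT3KD MEFs, against 27.0% and 8.52% in control MEFs. Its control signal at 12 h was 18.7, just above the near-background limit of 18.0. Another Nmnat3 probe set was near background at 0 h in both cultures, so it gives no readable fraction left. Nmrk1, a nicotinamide riboside kinase gene, was 1.74-fold higher at 0 h at its brightest probe set. There it kept 108% and 99.5% in CNOT3KD MEFs, against 58.9% and 26.0% in control MEFs. Its other probe sets were below the median signal and did not agree. One went the other way, with 62.6% and 33.7% left in CNOT3KD MEFs, against 126% and at most 67.8% in control MEFs. A further one had 13.3 in CNOT3KD MEFs, near background, and 28.8 in control MEFs at 0 h. At 12 h it had 40.0 in CNOT3KD MEFs and 11.1, near background, in control MEFs. Naprt, which uses nicotinic acid, had 168 in CNOT3KD MEFs and 11.4 in control MEFs at 0 h, at least 8.48-fold higher since control MEFs were near background.

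Other NAD-consuming enzymes included 11 measured genes, with 3 more than 1.5-fold higher and 0 lower at 0 h (19.5% and 15.7% of all genes), and 0 of 10 stabilized (10.6%). The higher genes were 3 ADP-ribosyltransferase genes, Parp9 at 887 and 166, Parp14 at 217 and 45.9, and Parp3 at 3799 and 2163, in CNOT3KD and control MEFs. Among members no dimmer than the median, Tnks2, a tankyrase gene, had a stabilization of 1.38 and Nnmt, which methylates nicotinamide, of 1.05. Parp14 kept 87.0% and 65.8% in CNOT3KD MEFs, against 47.8% and at most 39.1% in control MEFs, whose 12 h signal was near background. Tnks2 kept 90.5% and 85.5% in CNOT3KD MEFs and 68.4% and 16.6% in control MEFs.

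Of 10 genes that regulate sirtuins, 1 was more than 1.5-fold higher at 0 h, Mdm2 at 1.53-fold, and 1 lower, Setd7 at 1.66-fold, and 0 were stabilized by the rule, against 19.5%, 15.7% and 10.6% of genes. Hic1, a transcriptional repressor of Sirt1, kept 31.2% and 29.8% in CNOT3KD MEFs and 6.38% and 6.46% in control MEFs. Like Sirt1, it fell below the limit on the CNOT3KD ratio. Ccar2, which encodes an inhibitor of SIRT1, kept 83.2% and 78.0% in CNOT3KD MEFs, against 48.0% and 13.2% in control MEFs. Foxo3, both a SIRT1 substrate and an activator of Sirt1 transcription, kept 20.5% and 8.16% in CNOT3KD MEFs, against 3.83% and 4.82% in control MEFs. A dimmer probe set went the same way, with 27.8% and 18.8% in CNOT3KD MEFs, against 6.98% and at most 3.15% in control MEFs. The dimmest had 3 arrays near background and went the other way at 12 h, with 7.95 in CNOT3KD MEFs and 28.1 in control MEFs.

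Of 26 measured substrates and partners, 3 exceeded 1.5-fold at 0 h and 2 were as much lower (19.5% and 15.7% of all genes), and 1 of 23 was stabilized (10.6%). That gene was Rela, the NF-kB subunit deacetylated by SIRT1. Rela kept 73.6% and 68.9% in CNOT3KD MEFs and 31.6% and 18.3% in control MEFs. The other higher genes were Foxo4 at 2.32-fold and the acetyl-CoA synthetase gene Acss2 at 2.28-fold. Foxo4 went the other way after Act. D, with 96.1% and 49.8% left in CNOT3KD MEFs, against 238% and 263% in control MEFs. Ppargc1a, which encodes the SIRT1 substrate PGC-1alpha, was near background in CNOT3KD MEFs at 0 h and at least 3.12-fold lower than in control MEFs, and Cps1 was the other lower gene, with both cultures near background. The mitochondrial SIRT3 substrate genes Sod2 and Idh2 kept 132% and 149%, and 126% and 139%, in CNOT3KD MEFs, against 155% and 196%, and 173% and 205%, in control MEFs. Their stabilization, −0.32 and −0.51, is smaller in size than the 0.57 by which ribosomal protein scaling raises the median, so its sign depends on the scaling.

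The zinc-dependent histone deacetylases do not use NAD and served as a comparison. Of 11 genes, 0 exceeded 1.5-fold at 0 h (19.5% of all genes) and 1 was as much lower (15.7%), Hdac10 at 1.62-fold, and Hdac5 and Hdac6 were just under the limit at 1.49-fold and 1.499-fold higher. Only Hdac9 was stabilized, 1 of 11 against 10.6% of genes, with 127% and 92.4% left in CNOT3KD MEFs and 51.8% and at most 15.1% in control MEFs. Hdac1 kept 119% and 150% in CNOT3KD MEFs, against 168% and 229% in control MEFs. The sign of its stabilization, −0.55, depends on the scaling too, since ribosomal protein scaling raises the median by 0.57. The median stabilization was 0.07 for this list and 0.39 for the sirtuins, which with 1 array per condition was not tested.

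**Figure D4:**
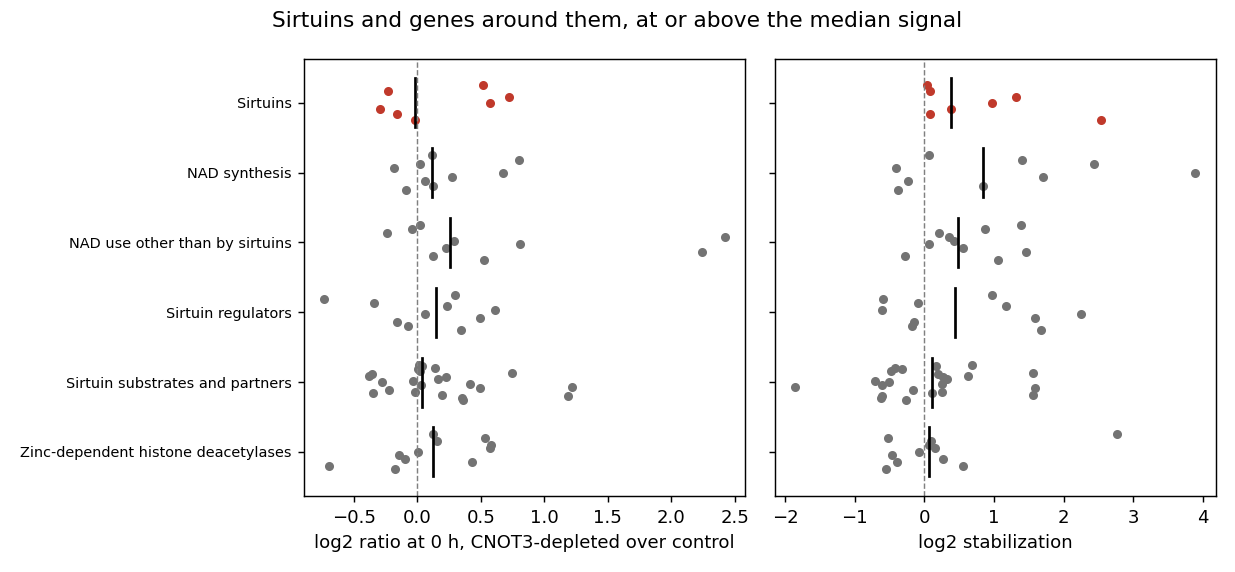
Log2 ratio of CNOT3KD to control MEFs at 0 h (left) and log2 stabilization (right) for the 7 sirtuins (red) and 5 lists of genes around them (grey), each gene at its brightest probe set and at or above the median signal, with the median of each list as a black bar. The median stabilization is 0.84 for the 9 NAD synthesis genes shown (0.07 over all 11 measured), 0.39 for the sirtuins and 0.07 for the zinc-dependent histone deacetylases.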

How the data were processed

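Total RNA of the 6 conditions was read on Affymetrix mouse whole-genome GeneChips. The deposited values are MAS5 intensity signals on a linear scale, made by the authors and scaled to about the same trimmed mean. The MAS5 version and scaling target are not stated. The platform annotation gives 1 symbol for 34945 probe sets, several for 932 and none for 9160. Signals entered without further scaling, with a floor of 1. The probe set brightest on average (log2) stood for its gene. With 1 array per condition no test was made, and size rules were applied. The scripts, written in Python 3.11.15 with pandas 2.3.3 and numpy 2.4.6, were checked on simulated data. Alternatives were quantile normalization, scaling by the median of 92 ribosomal protein signals, a floor of 16, thresholds of 2-fold and 3.0 times, 6 h or 12 h alone, the median over the probe sets of a gene, and no filter on signal.

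All sirtuin probe sets were named, with the 3 nearest genes of each sirtuin and, in each gene list, members among the 3 largest differences at 0 h and the 3 largest stabilizations. Sod2, Idh2, Cps1 and the further probe sets of Nampt, Nmnat1, Nmnat3, Nmrk1 and Foxo3 were picked with their values in view. The members and lists were chosen with earlier results of these data known. Endothelial, muscle and neural markers summed at 0 h to 248, 418 and 3179 in CNOT3KD MEFs and 242, 369 and 2115 in control MEFs. Genome coordinates are left out because no build is named for the arrays.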

Additional observations from a re-analysis of the deposited data

Results flagged for a closer look

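At all 3 Sirt5 probe sets the signal after Act. D lay above 0 h at both times in CNOT3KD MEFs and below it at both times in control MEFs. The log2 stabilization was 1.32 at 1428915_at, 0.62 at 1428916_s_at and 2.87 at 1432105_at. The last had 3 arrays near background and was 1.33 with a floor of 16. The difference was not tested, and these probe sets carry the same gene symbol and are not replicates. With quantile normalization the 6 h signal of 1428915_at in control MEFs was 112% of 0 h, and 1428916_s_at was at 143% and 106%. With ribosomal protein scaling 1428915_at was at 96.8% in CNOT3KD MEFs at 12 h and 1428916_s_at at 95.8% at 6 h.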

How the results depend on the processing

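The counts at 0 h and of stabilized probe sets rest on values near a limit. Above 1.5-fold at 0 h there were 2 sirtuin probe sets with quantile normalization (Sirt4 joining Sirt5) and 3 with ribosomal protein scaling (Sirt4 and Sirt7 joining), and at 2-fold 0 were higher and 0 lower. Stabilized probe sets numbered 1 with quantile normalization (Sirt1), 1 with ribosomal protein scaling (the brightest of Sirt5), 1 with no filter on signal and 1 with no limit on the CNOT3KD ratio (Sirt1), the last chosen after seeing the data. The call without the filter is the dimmest Sirt5 probe set and does not stand with near-background signals at the 25th percentile, where the fraction left at 12 h is 1.94 times that of control MEFs. The median stabilization of the 7 sirtuins, 0.39, was 0.14 with quantile normalization, 0.96 with ribosomal protein scaling, 0.31 at 6 h alone and 0.05 at 12 h alone. With ribosomal protein scaling the median over all probe sets shifted by 0.57, to 0.52. Over the scalings and the floor of 16, stabilization was 2.50 to 3.10 for Sirt1, 0.95 to 1.89 for the brightest probe set of Sirt5, 0.90 to 1.54 for Sirt4 and 0.14 to 0.96 for Sirt3. The Sirt5 probe set 1428916_s_at had 0.20 with quantile normalization and 1.19 with ribosomal protein scaling. Stabilization was −0.06 to 0.65 for Sirt2, −0.09 to 0.65 for Sirt6 and −0.48 to 0.60 for Sirt7. It was low with quantile normalization and high with ribosomal protein scaling, so these 3 genes have no settled sign. No paired analysis was possible because each combination of culture and time has 1 array and fewer than 2 replicate numbers are shared, and no array could be left out.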
